A study of Mus musculus with 8 samples.

Results

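The aquaporins measured in these mouse eyes were Aqp1, Aqp3, Aqp4, Aqp5 and Mip, which is also known as aquaporin 0. They are 5 of the 12393 genes named on the array by a probe set with a single symbol. They were chosen by that symbol as the water channels of the cornea, conjunctiva, ciliary body, retina and lens. The array carried 9 probe sets with 1 of these symbols, out of 22690 probe sets in all. Aqp3 had 3 probe sets, Aqp4 and Mip had 2 each, and Aqp1 and Aqp5 had 1 each. All 9 had a mean signal above the filter on dim probe sets, which kept 15838 of them.

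The study hybridised total RNA from mouse eyes to 8 Affymetrix expression arrays. The groups were KPAW eyes at 1 month, wild type eyes at 1 month, KPAW eyes at 5 days and wild type eyes at 5 days, each with 2 arrays numbered I and II. The labels do not expand KPAW, so neither an allele nor a promoter can be given for it. The wild type at 5 days was labelled C57Bl6, and no strain was given for the other groups. The labels do not say whether the 2 arrays of a group came from separate animals, so p-values measure only the spread between these arrays, which may be technical.

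Aquaporins are membrane channels that let water cross cell membranes along osmotic gradients. Aqp1, Aqp4 and Aqp5 pass mainly water, while Aqp3 is an aquaglyceroporin that also passes glycerol. In the eye, Aqp5 lies in the corneal epithelium and in lacrimal gland cells, and Aqp3 in the conjunctiva and the surface epithelium. Aqp1 serves the corneal endothelium, keratocytes and ciliary epithelium, Aqp4 the Mueller glia of the retina and the ciliary epithelium, and Mip the fibre cells of the lens, where it is a major membrane protein.

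The promoters of Aqp5, Aqp3 and Mip are shown because, among the 5 genes, Aqp5 had the largest change with age, Aqp3 the widest scatter between 2 arrays of a group and Mip no age change that passed the test. The sequences are RefSeq's on GRCm38.p6, from 250 bases before the annotated start to 20 bases after it, on the gene's own strand. Capitals mark TATAAA or CACGTG, which were searched on both strands and do not overlap each other.
Aqp5: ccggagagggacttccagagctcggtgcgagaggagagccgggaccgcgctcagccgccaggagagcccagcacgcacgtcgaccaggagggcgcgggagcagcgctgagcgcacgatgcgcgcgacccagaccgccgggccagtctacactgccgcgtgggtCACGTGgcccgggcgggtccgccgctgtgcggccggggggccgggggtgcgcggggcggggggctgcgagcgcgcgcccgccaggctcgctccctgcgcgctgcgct
Aqp3: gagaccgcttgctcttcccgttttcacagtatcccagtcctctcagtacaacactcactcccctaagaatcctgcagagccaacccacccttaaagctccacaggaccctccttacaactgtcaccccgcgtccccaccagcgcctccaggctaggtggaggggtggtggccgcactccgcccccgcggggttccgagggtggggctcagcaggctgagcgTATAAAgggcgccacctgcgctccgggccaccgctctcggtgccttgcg
Mip: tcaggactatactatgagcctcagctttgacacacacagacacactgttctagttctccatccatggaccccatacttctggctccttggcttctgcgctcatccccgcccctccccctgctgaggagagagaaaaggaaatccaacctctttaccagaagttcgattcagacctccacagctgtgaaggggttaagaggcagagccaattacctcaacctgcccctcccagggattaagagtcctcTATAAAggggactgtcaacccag
The Aqp5 window (chr15:99590778-99591047, plus strand) held 42 CpG dinucleotides, a G+C content of 78.5% and CACGTG at -87 to -82. In the Aqp3 window (chr4:41098164-41098433, minus strand) there were 17 CpG, a G+C content of 64.4% and TATAAA at -29 to -24. Mip's window (chr10:128225560-128225829, plus strand) had 3 CpG, a G+C content of 52.2% and TATAAA at -3 to 3. Over the 32851 promoter windows of this length, 12.9% held TATAAA and 6.57% held CACGTG, and the medians were a G+C content of 52.6% and 6 CpG. The Aqp5 promoter was thus far richer in CpG than the median window, and that of Mip poorer. A match describes the letters of these windows only.

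Signals are the deposited linear values after scaling each array to a common trimmed mean, and a difference is on the scale of log2(signal + 0.0211). Arrays of 1 group correlated over all tested probe sets at 0.927 for KPAW at 1 month, 0.969 for wild type at 1 month, 0.946 for KPAW at 5 days and 0.964 for wild type at 5 days. The 2 KPAW arrays at 1 month stood apart from each other. Gnat1, the rod transducin subunit, lay -6.57 (log2) from the wild type mean on KPAW array I and 0.14 on array II, and Krt12, the corneal keratin, lay at -4.14 and -0.50. The KPAW arrays at 5 days also differed. Xist, transcribed from the inactive X chromosome of females, had a signal of 0.0821 on array I and 3.13 on array II, and 2.95 and 3.64 on the wild type arrays. It lay between 0.0621 and 0.0861 on the KPAW arrays and between 0.0524 and 0.0817 on the wild type arrays at 1 month. The Y-linked gene Eif2s3y was between 0.0923 and 0.149 on the 5 arrays with low Xist and at the lowest deposited value, 0.01, on the 3 with high Xist. In wild type eyes Xist fell by 5.25 with age (log2, limma, adjusted p = 0.0253), so age and this sex pattern cannot be told apart in any wild type age difference. KPAW array I at 5 days shares the pattern of the 1-month arrays, and KPAW array II that of the wild type arrays at 5 days. In these whole-eye samples, fewer cells of a type and less RNA per cell cannot be told apart.

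Between 5 days and 1 month, the water channels outside the lens rose in both kinds of eye. In KPAW eyes, 6 of the 9 probe sets passed the test (limma, Benjamini-Hochberg adjusted p under 0.05), all higher at 1 month, against 6.76% of all tested probe sets. Wild type eyes had 7 of 9 higher at 1 month, against 8.73%. The arrays of the 2 ages did not overlap, with 1 month higher, for 9 of 9 probe sets in KPAW eyes, against 25.3% of all. In wild type eyes this held for 7 of 9, against 32.5%. The median difference over the 9 probe sets was 2.07 in KPAW and 1.87 in wild type eyes, beside -0.04 and -0.00 over all tested probe sets. With KPAW array I as the sole 5-day KPAW array, which matches the low Xist of the 1-month arrays, 5 of the 9 passed with age in KPAW eyes, again all higher at 1 month. These were Aqp5 (4.04), Aqp1 (1.24), both Aqp4 probe sets (2.69 and 1.61) and Aqp3 1422007_at (1.53), on the log2 scale, with the spread of the lone array taken from the other groups. Neither Mip probe set passed in either kind of eye. Between KPAW and wild type eyes of 1 age, none of the 9 passed.

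**Figure D1:**
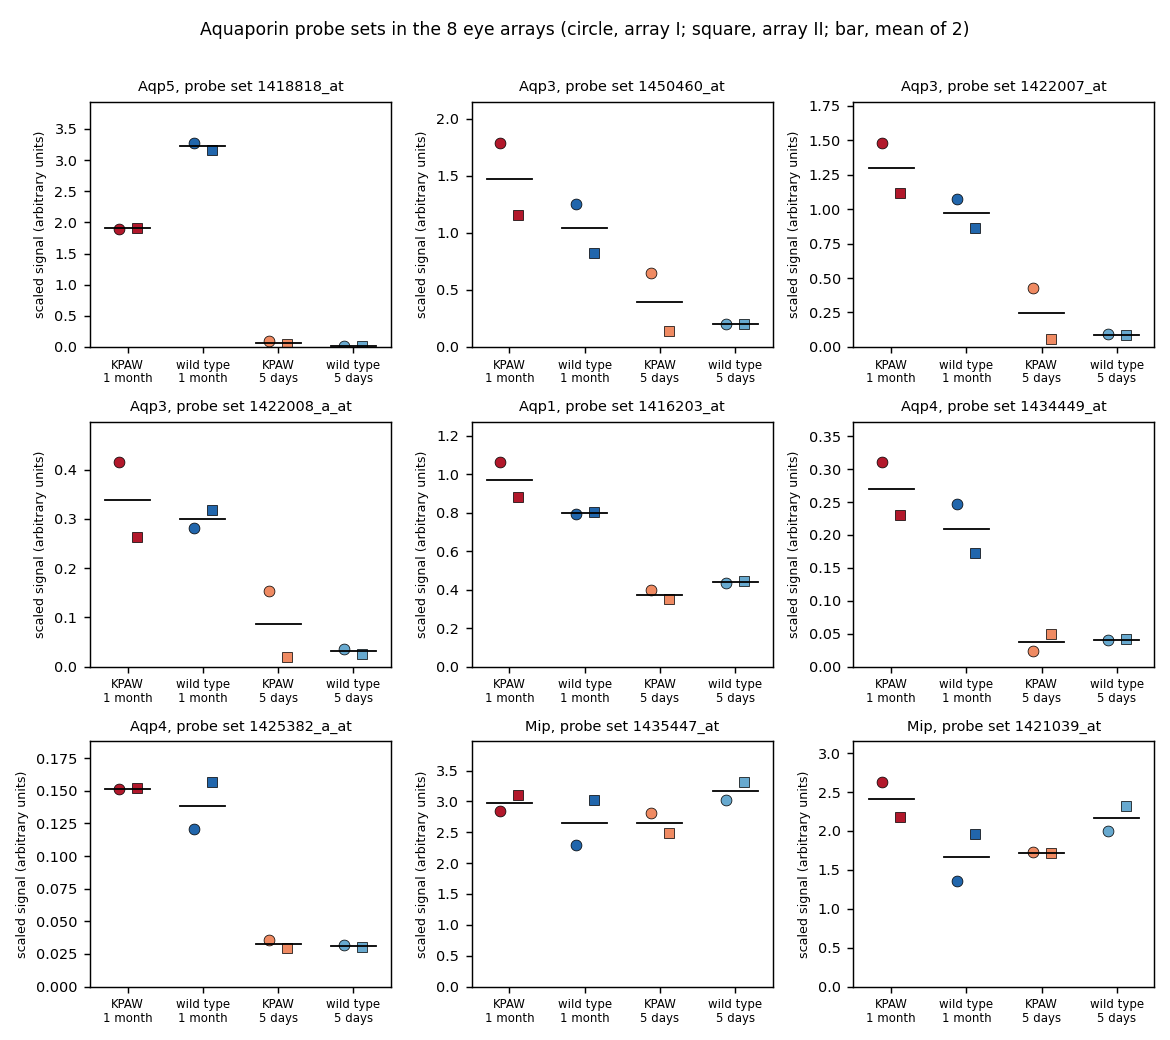
Scaled signal (arbitrary units, linear axis from 0, own scale in each panel) of the 9 aquaporin probe sets, with a circle for array I, a square for array II and a line at the mean of each group. Aqp5 spans the widest range, between 3.28 on a wild type array at 1 month and 0.0109 on a wild type array at 5 days, while both Mip probe sets stay between 1.36 and 3.31.

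Aqp5, the apical water channel of the corneal epithelium, had the largest change with age of the 9 probe sets. Its signal (1418818_at) was 1.90 and 1.92 on the KPAW arrays at 1 month, against 0.0961 and 0.0405 on the KPAW arrays at 5 days. On the wild type arrays it was 3.28 and 3.16 at 1 month, against 0.0109 and 0.0171 at 5 days. The ages were far apart in both kinds of eye, and the 4 group ranges did not overlap. Wild type at 1 month was highest, then KPAW at 1 month, then KPAW at 5 days, then wild type at 5 days. One wild type array at 5 days was listed at the lowest value the files hold, 0.01. Aqp5 rose by 4.51 with age in KPAW eyes (log2, SE 0.27, adjusted p = 0.000182) and by 6.54 in wild type eyes (SE 0.27, adjusted p = 7.54e-05). Both wild type signals at 5 days lay below the pseudocount, so that difference depends on it and ran from 5.49 to 7.11 over the other settings of the processing.

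The KPAW and wild type eyes differed in Aqp5 in opposite directions at the 2 ages. At 1 month the KPAW mean was 1.91 ± 0.0117 and the wild type mean 3.22 ± 0.0814 (SD, n = 2 each), a ratio of 0.592. The log2 difference of -0.75 (SE 0.27) had an unadjusted p of 0.0241 and an adjusted p of 0.675 across all probe sets in limma. At 5 days the KPAW mean was 0.0683 ± 0.0393 and the wild type mean 0.0140 ± 0.00436 (SD, n = 2 each). That difference was 1.28 (SE 0.27), with an unadjusted limma p of 0.00145 and an adjusted p of 1.00. It too depends on the pseudocount, and ran from 0.77 to 1.64 over the other settings of the processing. Each KPAW array was thus below each wild type array at 1 month, and above each at 5 days. Neither difference passed the test, and the change in the difference between the ages, -2.03 (SE 0.38), had an adjusted limma p of 0.650 and ran from -2.39 to -1.50 over those settings. With 1 KPAW array left at 5 days, assumed to vary like the other groups, the result depended on which one. Without array II the difference at 5 days was 1.75 and the change -2.50 (limma, adjusted p = 0.0232 and 0.0257). Without array I, which leaves 5-day arrays of like Xist signal, they were 0.82 and -1.57 (limma, adjusted p = 1.00 and 0.347). On the values as deposited, the change between the ages was -2.37 with an adjusted limma p of 0.01, against a median of -0.45 over all probe sets.

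**Figure D2:**
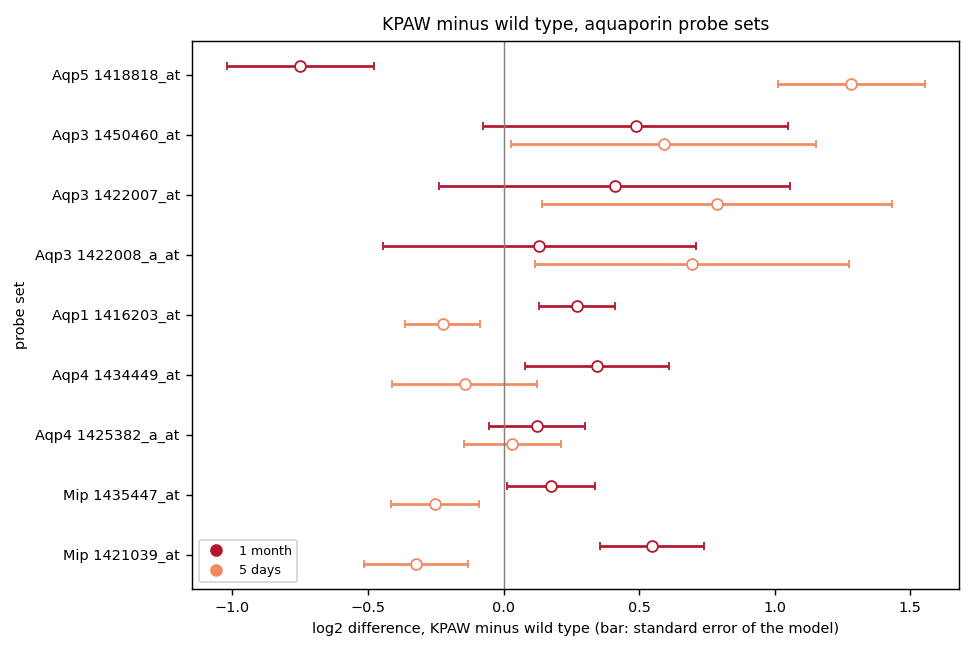
Log2 difference, KPAW minus wild type, of each aquaporin probe set at 1 month and at 5 days, with bars of 1 standard error from the limma fit. Open circles stand for an adjusted p that was not under 0.05, which is all of them, and Aqp5 lies at -0.75 at 1 month and at 1.28 at 5 days.

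Markers of the surface epithelium moved with Aqp5 over age. Of 9 corneal epithelium genes, 5 rose with age in KPAW eyes (against 6.76% of all probe sets) and 7 in wild type eyes (8.73%). Their summed signal was 16.7 and 21.8 in KPAW eyes at 1 month, 24.7 and 26.9 in wild type eyes at 1 month, 10.9 and 4.43 in KPAW eyes at 5 days, and 5.15 and 4.93 in wild type eyes at 5 days. The sum was lower in both KPAW arrays than in both wild type arrays at 1 month, as was Aqp5. Yet Aqp5 was nearly equal on the KPAW arrays at 1 month, at 1.90 and 1.92, while Krt12 was 0.391 and 5.13 on the same arrays, against 6.76 and 7.82 in wild type eyes. The part of the epithelial cells in the Aqp5 differences was not tested. Of 9 lacrimal and other exocrine gland genes, 6 were on the array and 1 was tested, the amylase gene Amy1. It rose with age by 1.87 in KPAW eyes and by 2.03 in wild type eyes (log2, adjusted p = 0.00208 and 0.00123). The 6 summed to between 0.248 and 0.298 in KPAW eyes at 1 month, 0.263 and 0.313 in wild type eyes at 1 month, 0.123 and 0.152 in KPAW eyes at 5 days, and 0.126 and 0.138 in wild type eyes at 5 days. At 1 month, the gland genes Prol1 and Dcpp1 lay at the lowest listed value on both KPAW arrays, and none of the 6 did on both wild type arrays. Aqp5 was 1.90 and 1.92 on these KPAW arrays, and 3.28 and 3.16 on these wild type arrays. The part of gland tissue in the Aqp5 values was not tested.

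Aqp3, the glycerol and water channel of stratified epithelia, also rose with age, but its arrays scattered more. Its brightest probe set (1450460_at) was at 1.79 and 1.15 on the KPAW arrays at 1 month, against 0.646 and 0.144 on the KPAW arrays at 5 days. In wild type eyes it was at 1.26 and 0.827 at 1 month, against 0.197 and 0.201 at 5 days. The ages did not overlap in either kind of eye, and KPAW array I was the higher of its pair at both ages. This probe set rose by 2.14 in KPAW eyes (log2, SE 0.56, adjusted p = 0.0416) and by 2.24 in wild type eyes (adjusted p = 0.0306). The second (1422007_at) rose by 2.78 in KPAW eyes (SE 0.65, adjusted p = 0.0280) and by 3.15 in wild type eyes (adjusted p = 0.0150). The third (1422008_a_at) rose by 2.63 in wild type eyes (adjusted p = 0.0192), while its difference of 2.07 in KPAW eyes missed the threshold (SE 0.58, adjusted p = 0.0505). The 3 probe sets correlated with each other at 0.981 to 0.993 over the 8 arrays.

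The Aqp3 calls rested on few arrays. All 3 wild type calls were lost when any 1 of the 4 wild type arrays was left out, with adjusted p between 0.0723 and 0.156. The KPAW call of 1450460_at was lost in all but 1 of the 8 fits with 1 array left out, the fit without KPAW array I at 5 days. Its KPAW age difference was 3.15 without that array and 1.13 without array II (adjusted p = 0.00253 and 0.101). For 1422007_at these differences were 4.02 and 1.53 (adjusted p = 0.000334 and 0.0172), and the call was lost without either KPAW or either wild type array at 1 month (adjusted p between 0.0543 and 0.0892). Between KPAW and wild type eyes, Aqp3 (1450460_at) averaged 1.47 ± 0.451 against 1.04 ± 0.305 at 1 month, and 0.395 ± 0.355 against 0.199 ± 0.00299 at 5 days (SD, n = 2 each). This probe set overlapped at both ages, and its log2 differences were 0.49 (SE 0.56) and 0.59 (SE 0.56). For 1422007_at the scaled KPAW arrays at 1 month were above those of wild type, at 1.48 and 1.12 against 1.07 and 0.864. The difference was 0.41 (SE 0.65, limma, adjusted p = 0.878). As deposited, these arrays overlapped, at 1.42 and 1.16 for KPAW and 1.51 and 0.904 for wild type. At 5 days the KPAW arrays lay on either side of the wild type mean for 1450460_at, at 1.60 for array I and -0.42 for array II. For 1422007_at the difference at 5 days was 2.03 without array II (adjusted p = 0.0335) and -0.46 without array I (adjusted p = 1.00), each from 1 KPAW array assumed to vary like the other groups.

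Some keratin genes of surface epithelia moved with Aqp3 on KPAW array I at 5 days. Krt12 did not, at 0.721 on that array and 0.739 on array II, against 0.553 and 0.548 in wild type eyes. Krt14, a basal epithelial keratin, had 3.69 and 0.169 on KPAW arrays I and II at 5 days, against 0.361 and 0.363 in wild type eyes. Krt13, a conjunctival keratin, had 1.26 and 0.0868, against 0.0932 and 0.0886 in wild type eyes. The 8 conjunctiva and goblet cell genes summed to 16.3 and 8.83 in KPAW eyes and to 2.68 and 2.80 in wild type eyes at 1 month, and to 3.29 and 0.857 in KPAW eyes and 0.919 and 0.965 in wild type eyes at 5 days. The goblet cell genes Muc5ac and Agr2 were at the lowest listed value on both wild type arrays at 5 days, and Agr2 on both KPAW arrays. The 8 epidermis and eyelid skin genes summed to 21.0 and 8.29 in KPAW eyes at 1 month, against 0.350 and 0.369 in wild type eyes, whose Lor and Krtdap were both at the lowest listed value. At 5 days they summed to 3.30 and 0.325 in KPAW eyes and to 4.69 and 0.417 in wild type eyes. Both sums at 1 month were higher on each KPAW array than on each wild type array, and the skin sum by far the more. In limma, 1 of the 8 skin genes passed higher in KPAW eyes at 1 month, against 0.0253% of all probe sets in either direction. None of the 7 conjunctiva genes tested passed. Aqp3 overlapped between the genotypes at 1 month for 1450460_at and 1422008_a_at. For 1422007_at the KPAW arrays were above after scaling, at 1.48 and 1.12 against 1.07 and 0.864, but overlapped as deposited. The part of conjunctiva and skin in the Aqp3 values was not tested.

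Aqp1, the water channel of the corneal endothelium and ciliary epithelium, rose with age by a smaller step and with little scatter. Its signal (1416203_at) was 1.06 and 0.883 on the KPAW arrays at 1 month, against 0.398 and 0.352 on the KPAW arrays at 5 days. In wild type eyes it was 0.792 and 0.805 at 1 month, against 0.437 and 0.445 at 5 days. No 2 of the 4 groups overlapped. KPAW at 1 month was highest and KPAW at 5 days lowest. Aqp1 rose by 1.32 in KPAW eyes (log2, SE 0.14, adjusted p = 0.00156) and by 0.83 in wild type eyes (SE 0.14, adjusted p = 0.00749). The wild type call was lost without either of the wild type arrays at 5 days (adjusted p = 0.0604 and 0.0543). KPAW eyes differed from wild type eyes by 0.27 at 1 month (SE 0.14, adjusted p = 0.675) and by -0.23 at 5 days (SE 0.14, adjusted p = 1.00). The change in the difference was 0.50 (SE 0.20, adjusted p = 0.809). As deposited, without scaling, the 1-month arrays overlapped, at 1.01 and 0.922 for KPAW and 1.11 and 0.843 for wild type. The 5-day arrays overlapped too, at 0.343 and 0.390 for KPAW and 0.402 and 0.352 for wild type.

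Genes of fluid-transporting epithelia, which drive the ion gradients that water follows, were measured alongside Aqp1. Of 14 listed ion and bicarbonate transport genes, 10 were tested. With age, 6 rose and none fell in KPAW eyes, where 6.76% of all probe sets rose. In wild type eyes 7 of the 10 rose and none fell, against 8.73% of all that rose. Their median log2 difference was 0.99 in KPAW and 0.75 in wild type eyes. The Na,K-ATPase subunit gene Atp1b1 rose by 1.26 in KPAW eyes (adjusted p = 0.00113) and by 1.06 in wild type eyes (adjusted p = 0.00156). Car14, a membrane carbonic anhydrase, rose by 1.10 in KPAW eyes (adjusted p = 0.0033). Slc12a2, the Na-K-Cl cotransporter, rose by 1.04 in wild type eyes (adjusted p = 0.00724), as did Car2, the cytosolic carbonic anhydrase, by 0.91 (adjusted p = 0.0135). None of the 10 passed between KPAW and wild type eyes at either age in limma.

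The cell types that can hold Aqp1 did not all move one way with age. The 6 pigment and ciliary body genes summed to 17.5 and 16.2 in KPAW eyes at 1 month, 13.5 and 14.5 in wild type eyes at 1 month, 10.4 and 9.23 in KPAW eyes at 5 days, and 11.5 and 12.4 in wild type eyes at 5 days. This sum had the same order of groups as Aqp1, but its genes did not all move one way. With age, 3 of the 6 passed higher and none lower in KPAW eyes in limma (median log2 difference 0.67), against 6.76% of all probe sets higher. In wild type eyes 2 passed higher and 2 lower (median 0.10). Of all 15838 probe sets, 8.73% passed higher there, and 2860 passed in either direction. The 6 keratocyte genes summed to between 14.3 and 16.7 in KPAW eyes and 10.5 and 10.8 in wild type eyes at 1 month, and between 11 and 12.1 in KPAW eyes and 13.9 and 14.0 in wild type eyes at 5 days. Vascular endothelium genes, 6 in number, gave 1.03 to 1.42 in KPAW eyes and 0.972 to 1.25 in wild type eyes at 1 month, and 1.29 to 1.34 in KPAW eyes and 1.41 to 1.63 in wild type eyes at 5 days. For the 3 erythroid genes of 7 on the array, the sums were 0.119 to 0.231 in KPAW eyes and 0.0721 to 0.147 in wild type eyes at 1 month, and 0.161 to 0.325 in KPAW eyes and 0.250 to 0.307 in wild type eyes at 5 days. The part of these cell types in the Aqp1 values was not tested.

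**Figure D3:**
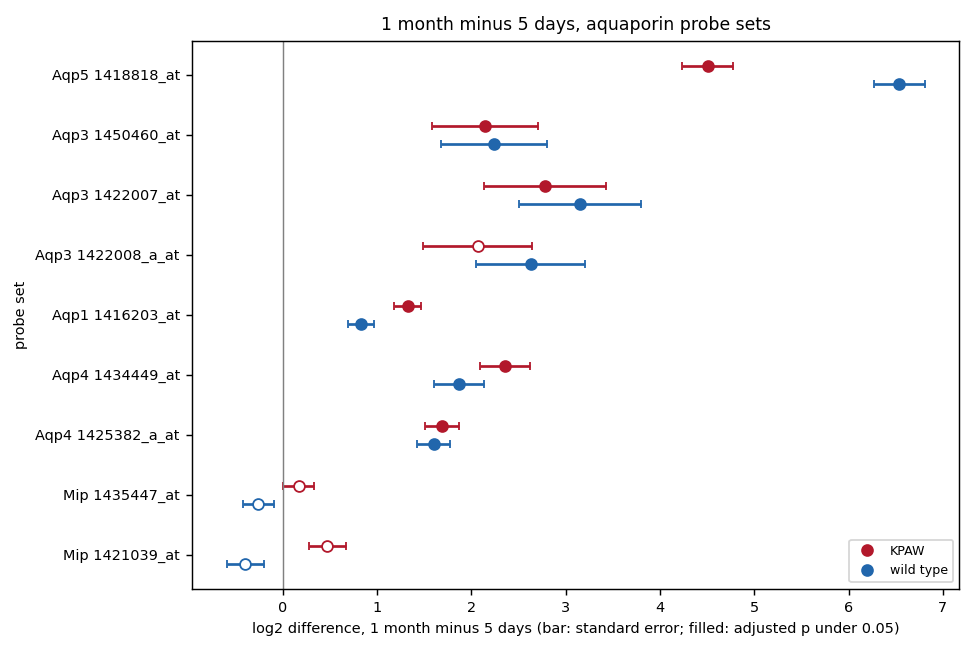
Log2 difference, 1 month minus 5 days, of each aquaporin probe set in KPAW and in wild type eyes, with bars of 1 standard error from the limma fit and filled circles for an adjusted p under 0.05. Aqp5 has the largest difference in both, 4.51 in KPAW and 6.54 in wild type eyes, and the Mip probe sets lie within 0.47 of 0.

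Aqp4, the water channel of glial endfeet, rose with age in both kinds of eye and by both probe sets. The brighter one (1434449_at) was at 0.310 and 0.231 on the KPAW arrays at 1 month, against 0.0238 and 0.0499 on the KPAW arrays at 5 days. Wild type arrays had 0.246 and 0.173 at 1 month, against 0.0403 and 0.0423 at 5 days. Every 1-month array lay above every 5-day array, and the genotypes overlapped at each age. It rose by 2.36 in KPAW eyes (log2, SE 0.27, adjusted p = 0.00204) and by 1.87 in wild type eyes (adjusted p = 0.00379). The other probe set (1425382_a_at) rose by 1.69 (SE 0.18, adjusted p = 0.00154) and 1.60 (adjusted p = 0.0014) in KPAW and wild type eyes. The pair correlated at 0.951 over the 8 arrays. All 5-day signals of 1425382_a_at lay below 0.0406, the cut that the filter set on the mean, and near the pseudocount of 0.0211. The size of its rise thus depends on the pseudocount. Over the other settings of the processing it ran from 1.199 to 1.94 in KPAW and from 1.12 to 1.98 in wild type eyes. The rise of 1434449_at ran from 1.78 to 2.64 in KPAW and from 1.404 to 2.28 in wild type eyes. KPAW and wild type eyes differed by 0.34 (SE 0.27) and 0.12 (SE 0.18) for the 2 probe sets at 1 month, and by -0.14 and 0.03 at 5 days, none of which passed the test.

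The proteins that hold Aqp4 at the endfoot and handle potassium beside it did not rise as a group. Of 10 listed partners, 7 were tested, and none passed with age in KPAW eyes in limma. In wild type eyes, Kcnj10, the inward rectifier potassium channel of Mueller cells, rose by 0.81 (adjusted p = 0.0312). Dag1, the dystroglycan gene, fell by 0.80 (adjusted p = 0.0476) and Agrn, which encodes the matrix protein agrin, fell by 1.21 (adjusted p = 0.0257). With age, 2259 of the 15838 tested probe sets passed in KPAW eyes and 2860 in wild type eyes, in either direction. Of 6 Mueller glia and astrocyte markers, 2 rose and 1 fell in each kind of eye. Glul, the glutamine synthetase of these cells, rose by 1.54 in KPAW and 1.58 in wild type eyes, and Gfap, the glial filament protein, fell by 1.62 in KPAW and 2.23 in wild type eyes. The 6 summed to 9.26 and 7.98 in KPAW eyes at 1 month, 7.05 and 8.55 in wild type eyes at 1 month, 5.90 and 5.74 in KPAW eyes at 5 days, and 6.98 and 6.59 in wild type eyes at 5 days. Rod genes summed to 0.455 and 21.0 on KPAW arrays I and II at 1 month, against 19.0 and 23.3 in wild type eyes. Aqp4 1434449_at was 0.310 on that KPAW array with the lowest rod sum, the highest scaled signal of the 8 arrays. As deposited, that KPAW array had 0.2964, below wild type array I at 1 month, at 0.3465. The scaled signal of 1425382_a_at was 0.151 on KPAW array I and 0.152 on KPAW array II. The wild type arrays at 1 month had 0.120 and 0.1565 for it. Fast skeletal muscle, which also holds Aqp4, had 6 genes that summed to 2.34 and 1.43 in KPAW eyes and 2.05 and 1.5 in wild type eyes at 1 month, and to 1.54 and 2.45 in KPAW eyes and 2.45 and 1.81 in wild type eyes at 5 days. Between the arrays of a pair, the muscle sum and Aqp4 1434449_at had the same order at 1 month in KPAW and wild type eyes. At 5 days they did so in KPAW eyes but not in wild type eyes. Probe set 1425382_a_at had the order of the muscle sum only in wild type eyes at 5 days. In KPAW eyes at 5 days, Aqp4 1434449_at was 0.0238 and 0.0499, while 1425382_a_at was 0.0354 and 0.0298. The part of muscle in the Aqp4 values was not tested.

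Mip, the channel and adhesion protein of lens fibres, was strong on every array. Its brighter probe set (1435447_at) had 2.84 and 3.11 in KPAW eyes at 1 month, 2.29 and 3.02 in wild type eyes at 1 month, 2.81 and 2.49 in KPAW eyes at 5 days, and 3.02 and 3.31 in wild type eyes at 5 days. The other (1421039_at) had 2.63 and 2.19 in KPAW eyes at 1 month, 1.36 and 1.96 in wild type eyes at 1 month, 1.73 and 1.71 in KPAW eyes at 5 days, and 2.0 and 2.33 in wild type eyes at 5 days. No group stood far from the others, and the probe sets correlated at only 0.779 over the 8 arrays. The age differences were 0.17 and 0.47 in KPAW eyes (log2, adjusted p = 0.533 and 0.141) and -0.26 and -0.40 in wild type eyes (adjusted p = 0.298 and 0.191).

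Between the genotypes, the Mip probe sets gave 0.17 (SE 0.16, adjusted p = 0.775) and 0.55 (SE 0.19, adjusted p = 0.675) at 1 month, and -0.25 and -0.32 at 5 days. For 1421039_at the scaled KPAW arrays were above those of wild type at 1 month and below them at 5 days. Its change in the difference was 0.87 (SE 0.27, limma, adjusted p = 0.809). As deposited, the 5-day arrays of 1421039_at overlapped, at 1.495 and 1.898 for KPAW and 1.841 and 1.84 for wild type. The 5 lens fibre genes measured of 6 listed summed to between 37.8 and 39.7 in KPAW eyes and 30.3 and 37.8 in wild type eyes at 1 month, and between 24.7 and 30.7 in KPAW eyes and 30.8 and 32.4 in wild type eyes at 5 days. The KPAW sums just overlapped the wild type sums at 1 month and lay below them at 5 days, and their part in the Mip values was not tested. Of 12 partners of Mip in the fibre membrane and cytoskeleton, 6 were tested. None passed with age in KPAW eyes in limma, and Gja3, the fibre connexin, fell by 0.81 in wild type eyes (adjusted p = 0.0289).

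No aquaporin probe set passed the test between KPAW and wild type eyes at either age. At 1 month, 0 of 9 probe sets passed in limma, against 0.0253% of all tested probe sets. An unadjusted limma p under 0.05 was held by 2 of the 9, against 1100 of all 15838. Arrays did not overlap for 4 of the 9, with 3 higher and 1 lower in KPAW eyes, against 36.5% of all. At 5 days, 0 of 9 passed, against 0.0% of all. The unadjusted limma p was under 0.05 for 1 of the 9, against 378 of all 15838. Here 1 was higher and 3 were lower in KPAW eyes without overlap, against 33.5% of all. The change in the difference between the ages passed for 0 of 9, against 0.0% of all. Its unadjusted limma p was under 0.05 for 3 of the 9, against 932 of all 15838. The shares without overlap, 4 of 9 at each age on the scaled signals, were near those of all probe sets. Median differences over the 9 were 0.27 at 1 month and 0.03 at 5 days, beside -0.01 and 0.01 over all. The age comparisons and the genotype comparisons share arrays and are not independent.

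**Figure D4:**
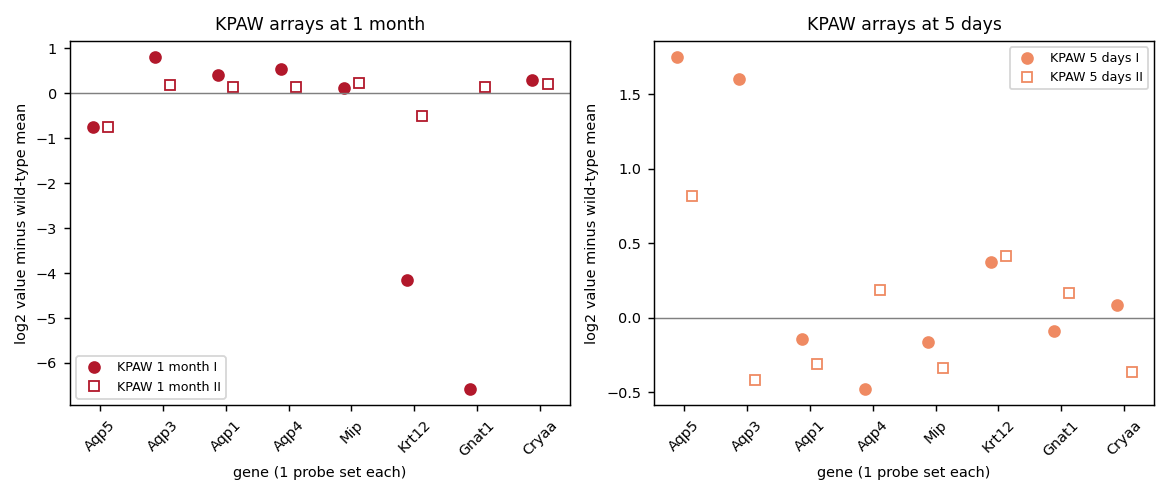
Log2 difference of each single KPAW array from the mean of the wild type arrays of its age, for 1 probe set of each aquaporin and for Krt12, Gnat1 and the lens crystallin gene Cryaa, with filled circles for array I, open squares for array II and a different vertical scale at each age. Aqp5 lies at -0.76 and -0.74 on the 1-month arrays, which are far apart for Krt12 (-4.14 and -0.50) and Gnat1 (-6.57 and 0.14).

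The single KPAW arrays showed which members varied within a group. At 1 month Aqp5 lay at -0.76 and -0.74 (log2) from the wild type mean, and Aqp1 at 0.40 and 0.14. Aqp3 was at 0.80 and 0.17, Aqp4 (1434449_at) at 0.54 and 0.15, and Mip (1435447_at) at 0.11 and 0.24. At 5 days Aqp5 was at 1.75 and 0.82, Aqp1 at -0.14 and -0.31, Aqp4 at -0.48 and 0.19, and Mip at -0.17 and -0.34. Aqp3 had the widest gap between the arrays of a pair, at 5 days.

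The other members of the family gave little signal in these eyes. Of 7 listed, Aqp2, Aqp7, Aqp8 and Aqp9 were on the array and 1 of them, Aqp2, passed the filter on dim probe sets. Aqp2, the vasopressin-regulated channel of the kidney, lay between 0.0265 and 0.0686 on the 8 arrays and passed no test. Aqp7, a glycerol channel of fat cells, was at the lowest listed value on all 8 arrays. Aqp6, Aqp11 and Aqp12 were not analysed here.

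The genes whose values ran most like each aquaporin over the 8 arrays were ranked by Pearson's r, over 9491 genes and with no test. The arrays fall into 2 ages, which the high correlations of the rising members share. Aqp5 was followed by Cops7a (0.998), Atp6v1g2 (0.995) and Kcnab3 (0.994). The nearest to Aqp3 were Stom (0.993), Muc1 (0.989), a membrane mucin of surface epithelia, and Ehf (0.989), an epithelial transcription factor. Pip4k2a (0.996), Defb1 (0.995) and Mpp2 (0.994) came first for Aqp1, and Pfkm (0.994), Tmem191c (0.994) and Mb (0.993), the myoglobin gene, for Aqp4. Mip had Mrpl14 (0.935), Tdrd7 (0.919), which is expressed in lens fibres, and Klf2 (0.904). Above 0.95 there were 219 genes for Aqp5, 178 for Aqp1, 151 for Aqp4, 126 for Aqp3 and 0 for Mip.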

How the data were processed

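Total RNA from mouse eyes was prepared with Trizol and RNeasy columns, per the labels' protocols. The authors deposited linear intensity values, 1 per probe set and array; the software was not given in the sources used here. Per the file headers and values, control probe sets had a median of 1 and the lowest listed value was 0.01, held by 10.0% to 14.9% of probe sets. Arrays have no read depth, and their number limits the precision. After removing 64 controls, arrays were multiplied to a common trimmed mean (2% off each end, 0.142 to 0.253 before), the median of all 8. Values became log2(signal + 0.0211), adding the 20th percentile as pseudocount, and probe sets with a mean above the 30th percentile were kept (15838). A limma model (3.58.1, R 4.3.3) with 4 group means and a variance trend gave 5 contrasts, adjusted over all kept probe sets, and was tested on simulated data. Groups came from the titles. Gene names came from the platform annotation, where 20380 probe sets carry 1 symbol. Figures and descriptions used Python 3.11.15.

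The rule named every probe set of the 5 genes, the 3 most correlated genes of each, and the listed partner and marker genes, each by its brightest probe set. The members and lists were chosen with earlier results of these data known. Numerals I and II were not used as pairs, because the titles do not say that they mark a shared animal, litter or day. Of 6 correlations between same-numbered deviations, 3 exceeded 0.1 (-0.0174 to 0.309), so some pairing is not excluded. Alternatives changed the scaling, pseudocount, filter, variance trend, array weights, groups in the fit, replicate block and each array.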

Additional observations from a re-analysis of the deposited data

Results flagged for a closer look

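On the scaled signals, 3 probe sets had both KPAW arrays on 1 side of both wild type arrays at 1 month. At 5 days these lay on the other side. The change in the difference between the ages was tested in limma. Aqp5 (1418818_at) had a change of -2.03 (log2, SE 0.38, unadjusted p = 0.000715, adjusted p = 0.650). Over the other settings its adjusted p ran between 0.01 and 0.998. Aqp1 (1416203_at) had a change of 0.50 (SE 0.20, limma, adjusted p = 0.809), and its arrays overlapped at both ages in the values as deposited. Mip (1421039_at) had a change of 0.87 (SE 0.27, limma, adjusted p = 0.809), while the other Mip probe set gave 0.43. In the values as deposited, the 5-day arrays of Mip 1421039_at overlapped. None of the 3 passed across all probe sets in the limma fit as reported.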

How the results depend on the processing

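Of 841 values under other settings, 778 kept their direction and side of the threshold, 30 lost the call, 9 gained it and 24 changed sign. All age calls of Aqp5 and Aqp4 were kept in every setting run that gave a value; Aqp4 1425382_a_at gave none with the filter at the 50th percentile. Leaving out 1 array at a time, the aquaporin probe sets called with age numbered 4 to 7 in KPAW and 3 to 7 in wild type eyes, those called between KPAW and wild type eyes 0 throughout at 1 month and 0 to 2 at 5 days, and those called for the change in the difference 0 to 1. The counts of 2 and 1 came without KPAW array II at 5 days. Each such fit leaves 1 array in a group, which is assumed to vary like the other groups. As deposited, without scaling, 1 aquaporin probe set (Aqp5) passed for the change in the difference. That setting moved the median of all probe sets to -0.26 for KPAW against wild type eyes at 1 month, 0.18 at 5 days, -0.45 for the change and 0.44 for age in wild type eyes. It turned the sign of 9 of 45 aquaporin differences, none of them called. These were Aqp1 (-0.0037), Aqp3 1422008_a_at (-0.13), Aqp4 1425382_a_at (-0.12) and Mip 1435447_at (-0.10) at 1 month, Aqp4 1434449_at (0.0030) at 5 days, Aqp4 1425382_a_at (-0.27) and Mip 1435447_at (-0.049) for the change, and Mip 1421039_at (0.11) and 1435447_at (0.24) for age in wild type eyes. Taken relative to the medians, 1 of the 45 differed in sign, Aqp4 1425382_a_at at 5 days (-0.04). Quantile normalization gave that difference as -0.0054. Leaving out 1 array turned the sign of 12 differences, none called in the full fit. At 1 month these ran -0.18 to 0.44 for Aqp3 1422008_a_at, -0.041 to 0.29 for Aqp4 1425382_a_at and -0.024 to 0.37 for Mip 1435447_at. At 5 days they ran -0.46 to 2.03, -0.37 to 1.76 and -0.42 to 1.60 for Aqp3 1422007_at, 1422008_a_at and 1450460_at, and -0.043 to 0.11 and -0.48 to 0.19 for Aqp4 1425382_a_at and 1434449_at. For the change they ran -1.62 to 0.86, -1.63 to 0.50 and -1.11 to 0.91 for the same Aqp3 probe sets and -0.074 to 0.25 for Aqp4 1425382_a_at. Aqp3 1450460_at lost its KPAW age call in 10 of 19 settings, with array weights (adjusted p = 0.0692), with no filter (0.0547) and with the KPAW groups alone (0.125) among them. With the numeral as a replicate block, the aquaporin calls with age were 7 in KPAW and 7 in wild type eyes, Aqp3 1422008_a_at being the one gained (adjusted p = 0.0284), and 13 against 4 probe sets of all passed at 1 month. Over all probe sets, the calls at 1 month also numbered 99 as deposited, 19 when only those groups entered and up to 562 with 1 array left out, against 4; at 5 days up to 27, against 0; for the change 36 as deposited and up to 306, against 0; with age in KPAW eyes 604 with the groups alone and from 733, against 2259; and in wild type eyes from 848 with 1 array left out, against 2860. The cause of these changes was not tested. With 2 arrays a group, their number limits every comparison.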
